A study of Mus musculus with 24 samples.

Results

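The regions described here are stretches of open chromatin, away from gene ends, that were found in mouse hindlimb muscle shortly before birth and were mostly no longer found in the adult. They were chosen by their calls: a region had to be called as an ATAC-seq peak in at least 9 more of the 12 E18.5 libraries than of the 12 adult libraries, with no RefSeq gene start or end within 1 kb. Of 459668 regions called in 2 or more of 24 libraries, 409178 were distal in this sense and 4279 met the rule. These 4279 are called lost distal regions below, and the calls that chose them are given as a description, without a test. By the mirrored rule 1496 distal regions were gained in the adult. The 2 rules took 1.05% and 0.366% of the distal regions.

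The libraries came from male FVB/NJ mice, an inbred strain. Of 4 hindlimb muscles, the study chose 2 as rich in slow myofibres (slow-biased: soleus, vastus intermedius) and 2 as poor in them (fast-biased: gastrocnemius, vastus lateralis). Each muscle came from 3 adult mice and from 3 litters at E18.5, just before birth. The series gives the adult stage as postnatal day 56, while the protocols in the labels state that mice were obtained at an older age, so the adult age was not settled. Each adult gave all 4 muscles, and so did each litter, whose male embryos were pooled by muscle. The 12 libraries of a stage thus rest on 3 animals or litters. Nuclei were isolated from undigested tissue, so fewer cells of a type and less accessibility per cell cannot be told apart.

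ATAC-seq marks DNA that is free enough of nucleosomes for a transposase to cut. Away from gene starts such DNA often lies at enhancers, elements that raise the transcription of a gene from a distance and that differ more between cell types and stages than promoters do. Around birth, mouse hindlimb muscle holds dividing progenitors, fibres with embryonic and neonatal myosins and a growing connective tissue, and in the weeks after birth the fibres mature.

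The 24 lists held 115333 to 228137 peaks, and read depth is not given in the sources used here. Adult lists held 166593 ± 31671 peaks and E18.5 lists 167856 ± 34247 peaks (SD, n = 12 each). Adult animal 1 and litter 1 each carry other dates in the file names than the remaining animals and litters, and no date is shared between the stages, so date and stage cannot be told apart. The tissue label was checked on promoter windows, which run from 250 bases before to 50 after a transcript start. The windows of Des, Ckm, Ryr1, Acta1, Actn2 and Mef2c, genes of muscle fibres, were each called in 12 adult lists and in 11 or 12 E18.5 lists. That of Ttn, the giant spring protein titin, was called in 12 adult and 7 E18.5 lists.

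Most lost regions lay where no transcript start is annotated, but 39 of 32851 promoter windows in the RefSeq table overlapped one, at starts inside 35 genes. They fell in 35 lost regions, 0.818% of the total. In 7 of these windows the region was called in 0 adult lists. Windows of 4 genes are printed from RefSeq (GRCm38.p6), because they show DNA that was called open in most E18.5 libraries and in 0 of 12 adult libraries. Capitals mark the bases inside the lost region.

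Lin28b, an RNA-binding protein that blocks the maturation of let-7 microRNAs (chr10:45470152-45470451, minus strand, 0 of 12 adult and 10 of 12 E18.5 libraries): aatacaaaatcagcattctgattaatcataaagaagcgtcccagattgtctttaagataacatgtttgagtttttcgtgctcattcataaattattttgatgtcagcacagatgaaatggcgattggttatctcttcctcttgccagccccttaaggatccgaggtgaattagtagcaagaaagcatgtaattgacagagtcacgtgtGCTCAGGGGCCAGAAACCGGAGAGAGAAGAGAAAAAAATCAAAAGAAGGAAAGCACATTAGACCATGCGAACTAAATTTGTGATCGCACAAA

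Enthd1, a gene that encodes a protein with an ENTH domain (chr15:80560421-80560720, minus strand, 0 of 12 adult and 12 of 12 E18.5 libraries): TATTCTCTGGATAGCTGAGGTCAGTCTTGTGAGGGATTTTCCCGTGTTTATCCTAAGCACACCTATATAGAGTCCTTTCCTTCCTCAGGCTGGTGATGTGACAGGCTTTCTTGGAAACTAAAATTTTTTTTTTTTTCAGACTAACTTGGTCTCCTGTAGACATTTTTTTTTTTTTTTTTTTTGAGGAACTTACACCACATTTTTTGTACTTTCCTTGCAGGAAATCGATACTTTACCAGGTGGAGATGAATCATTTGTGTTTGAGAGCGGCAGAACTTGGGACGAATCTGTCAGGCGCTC

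Pcyt1b, an enzyme of phosphatidylcholine synthesis (chrX:93674862-93675161, plus strand, 0 of 12 adult and 12 of 12 E18.5 libraries): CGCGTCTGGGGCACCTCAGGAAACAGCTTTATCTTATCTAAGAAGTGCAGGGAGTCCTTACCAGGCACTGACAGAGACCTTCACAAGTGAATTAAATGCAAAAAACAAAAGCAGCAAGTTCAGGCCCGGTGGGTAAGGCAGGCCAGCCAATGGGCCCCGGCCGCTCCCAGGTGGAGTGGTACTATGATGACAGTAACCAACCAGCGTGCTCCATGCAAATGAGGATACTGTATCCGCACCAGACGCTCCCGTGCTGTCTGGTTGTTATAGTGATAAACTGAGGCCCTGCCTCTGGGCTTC

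Arhgap36 (chrX:49470200-49470499, plus strand, 0 of 12 adult and 10 of 12 E18.5 libraries): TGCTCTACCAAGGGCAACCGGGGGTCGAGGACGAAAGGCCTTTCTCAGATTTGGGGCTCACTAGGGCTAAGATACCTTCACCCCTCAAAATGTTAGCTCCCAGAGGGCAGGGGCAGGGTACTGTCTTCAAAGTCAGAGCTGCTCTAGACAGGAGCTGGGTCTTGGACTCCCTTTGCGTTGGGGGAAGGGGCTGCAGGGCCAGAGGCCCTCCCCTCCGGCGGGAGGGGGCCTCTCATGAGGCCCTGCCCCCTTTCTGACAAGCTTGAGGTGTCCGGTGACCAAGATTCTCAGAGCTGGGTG

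In Lin28b the lost region took in 92 of the window's 300 bases, the last ones of the window, and in the other 3 genes all 300. The region around the Lin28b window spans chr10:45469059-45470243. The windows were searched on both strands for short motifs. CAGCTG, an E-box of the kind that MyoD family factors bind, was present in 9 of the 39 windows (23.1%), and in 16.3% of all 32851 windows. The AP-1 motif, TGACTCA or its complement TGAGTCA, was present in 6 of 39 (15.4%), and in 5.202% of all windows. GGAATG (TEAD) was in 10.3% of the 39 and 14.7% of all, TGTGGT (RUNX) in 17.9% and 16.8%, and ACAAAG or ACAATG (SOX) in 23.1% and 28.6%. The palindromic NFI motif and the MEF2 motif were in 0 of the 39 windows, and in 0.0365% and 0.557% of all. The median GC content was 56% in the 39 windows and 52.7% in all. A match says only that these letters are present, and no motif was tested. By the rule the 39 windows lie away from gene ends, while all windows include those at gene starts, so the sets differ in kind. Whole windows were searched, also where part lay outside the lost region, as in Unc93a2 (192 of 300 bases inside). The windows of Elavl2 overlap each other and each hold CAGCTG. The lost regions without a printed window have no sequence here, since only promoter and miRNA sequences were at hand.

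MicroRNA genes were the other elements with known sequence near the lost regions. MicroRNAs are short RNAs that repress messages through their seed, bases 2 to 8. Of 1005 miRNA hairpins in the RefSeq table, 880 had a distal region within 10 kb, 48 (4.78%) had a lost one, and 3 had 2 or more. Counted once each, 36 of the 3949 distal regions near hairpins were lost ones (0.912%), against 1.05% of all distal regions. Mir125b-1, whose product is known in mouse to restrain myoblast differentiation, had 3 of its 7 distal regions, called in 0 or 1 adult libraries and 10 E18.5 libraries each. Their centres lay at -3.86, 4.36 and 6.47 kb from the hairpin's start, with negative values upstream. Mir6481 and Mir6402 had 2 each. Mature sequences of 10 miRNAs, picked by hand to show Mir125b-1, the hairpins inside Dnm3 and Hmga2, 3 of the shared seeds and the start of a cluster, are given from RefSeq with the seed in capitals.

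miR-125b-5p, from Mir125b-1 on chromosome 9: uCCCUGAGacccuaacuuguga
miR-199a-3p, from Mir199a-2 on chromosome 1: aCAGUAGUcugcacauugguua
miR-199b-3p, from Mir199b on chromosome 2: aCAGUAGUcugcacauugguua
miR-214-3p, from Mir214 on chromosome 1: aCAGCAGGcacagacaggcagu
miR-763, from Mir763 on chromosome 10: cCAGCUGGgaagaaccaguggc
miR-148b-3p, from Mir148b on chromosome 15: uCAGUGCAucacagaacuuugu
miR-152-3p, from Mir152 on chromosome 11: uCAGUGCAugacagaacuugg
miR-449a-5p, from Mir449a on chromosome 13: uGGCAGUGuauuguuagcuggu
miR-449c-5p, from Mir449c on chromosome 13: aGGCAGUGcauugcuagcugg
miR-379-5p, from Mir379 on chromosome 12: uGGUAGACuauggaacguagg

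The 48 hairpins shared 8 seeds between them. Mir199a-2 and Mir199b, which carry the same seed CAGUAGU on different chromosomes, each had 1 lost region, called in 3 and 2 adult libraries and in 12 E18.5 libraries each. The region near Mir199a-2 was also the nearest to Mir214, and lies inside Dnm3, whose locus is described below. Mir148b and Mir152 (seed CAGUGCA) also lie on different chromosomes. Their regions were called in 1 adult library each, and in 10 and 12 E18.5 libraries. Mir763 lay inside a lost region of the Hmga2 gene, called in 0 adult and 10 E18.5 libraries. A region on chromosome 12 (chr12:109706031-109707673, 1 adult and 11 E18.5 libraries) was the nearest to 13 hairpins of the large imprinted cluster that begins with Mir379, so those 13 hairpins rest on 1 region.

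The calls of the lost regions were nearly the reverse between stages in every library. Adult soleus libraries called 330, 442 and 364 of the 4279 regions, adult vastus intermedius 177, 278 and 334, adult gastrocnemius 432, 412 and 305, and adult vastus lateralis 488, 533 and 626. E18.5 soleus libraries called 4198, 4102 and 3073, vastus intermedius 4249, 4002 and 3434, gastrocnemius 4261, 4226 and 3667, and vastus lateralis 4218, 3493 and 3790. The lowest E18.5 library, soleus of litter 3, still called 71.8% of the regions, and the highest adult library, vastus lateralis of animal 3, called 14.6%. Over all distal regions the stages overlapped, with 17.9% to 31.0% called in adult and 19.4% to 37.1% in E18.5 libraries.

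**Figure D1:**
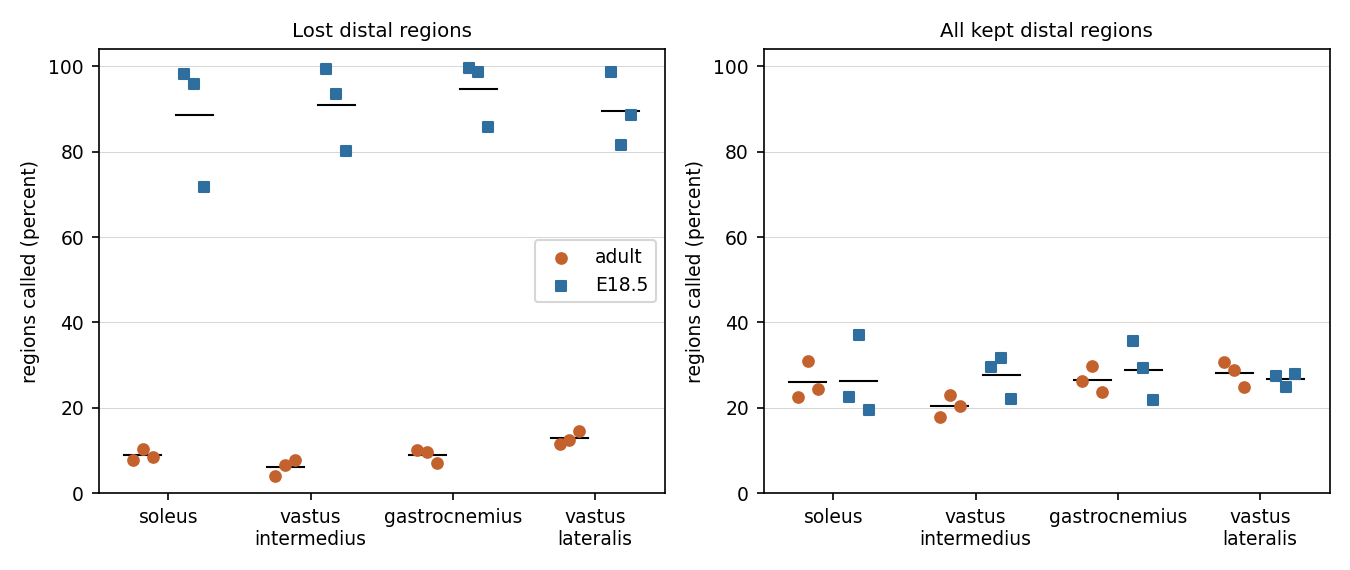
Share of regions called in each library, in percent, for the 4279 lost distal regions (left) and for all 409178 kept distal regions (right), by muscle; circles are the 3 adult animals, squares the 3 litters, in order of their number, and black lines the means. Lost regions were called at 4.14% to 14.6% in adult libraries and 71.8% to 99.6% in E18.5 libraries, while the stages overlapped over all distal regions.

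Of the lost regions, 1553 (36.3%) were called in 0 adult libraries, 1289 in 1, 879 in 2 and 558 in 3. At E18.5, 1615 (37.7%) were called in all 12 libraries, 1220 in 11, 917 in 10 and 527 in 9. Both extremes met in 257 regions (6.01%), with 0 adult and 12 E18.5 calls. The rule's edge was crowded: 2005 lost regions (46.9%) differed by exactly 9 libraries, and 3037 further distal regions differed by 8 and fell just outside.

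**Figure D2:**
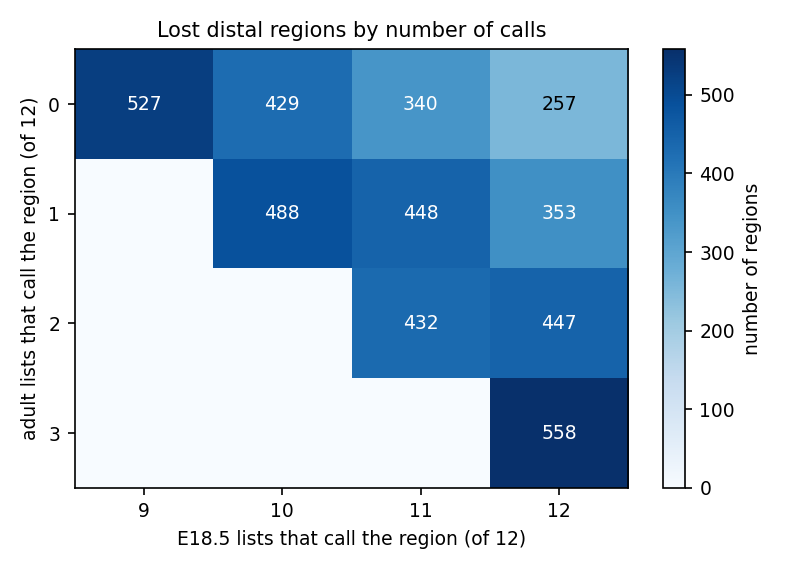
Number of lost distal regions by the E18.5 libraries (horizontal, of 12) and adult libraries (vertical, of 12) that called them; darker cells hold more regions and empty cells are barred by the rule. The 257 regions with 12 E18.5 and 0 adult calls are in the top right cell.

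The 4 muscles shared most of the lost regions. In 3336 (78.0%), every muscle had 2 or 3 calls at E18.5 and 0 or 1 in the adult. Within single muscles, soleus had 2099 lost regions (49.1%) that its 3 adult libraries all missed and its 3 E18.5 libraries all called. This number was 2572 (60.1%) for vastus intermedius, 2676 (62.5%) for gastrocnemius and 1896 (44.3%) for vastus lateralis. Among all 459668 kept regions the same pattern was met by 1.55%, 1.93%, 2.12% and 1.16%. The rule used these calls, so the shares describe the regions and no test was made.

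Missing E18.5 calls gathered in 1 litter. Of 4635 missed calls, 68.0% fell in litter 3, 27.9% in litter 2 and 4.10% in litter 1. By muscle, gastrocnemius held 14.7% of them and soleus 31.6%. The 4 lists of litter 3 held 120387 to 178191 peaks and those of litter 1 129754 to 211354. Without litter 3 the rule, read as a difference of 75 percentage points, found 7755 regions, 4149 of them among the 4279. Without litter 1 it found 3073.

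Adult calls in the lost regions were spread over animals and leaned to 1 muscle. Of 4721 such calls, vastus lateralis held 34.9%, gastrocnemius 24.3%, soleus 24.1% and vastus intermedius 16.7%. Vastus lateralis also had the longest adult lists (187519 ± 31634 peaks; SD, n = 3) and vastus intermedius the shortest (130608 ± 15031), and the part of list length in this order was not tested. Animals 1, 2 and 3 held 30.2%, 35.3% and 34.5%. Among the 558 regions with 3 adult calls, 20 had all 3 in 1 muscle, 10 of these in vastus lateralis, and 26 had all 3 in 1 animal. In 30 of the 558 all 3 calls were in slow-biased muscles and in 98 in fast-biased ones.

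Peak widths in lost regions are given as a description, since regions with few adult and many E18.5 calls were chosen and fewer calls went with narrower peaks. The median width of the peaks in lost regions was 306 to 381 bp over the 12 adult libraries and 423 to 696 bp over the 12 E18.5 libraries, and the stages did not overlap. In 0 of 12 adult libraries and in all 12 E18.5 libraries these peaks had a higher median width than the whole list. For the 2726 lost regions with an adult call, the adult peaks had a median width of 351 bp and the E18.5 peaks of the same regions 638 bp, and the adult peak was narrower in 2468 (90.5%). Apart from the order of the rows, peak width is the only graded value the lists hold. Peak width depends on the depth of a library, which is not known.

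Row position followed peak width along the lists, though not in every comparison. It belongs to the same peaks and is given as a description. The lists are not sorted by position, and the median peak width was 1043 bp in the top 10% of the rows and 283 bp in the bottom 10%, so rows appear ranked, though no source states by what. Peaks in lost regions lay at a median row position of 53.1% to 68.4% of the list in adult libraries and 15.9% to 38.8% in E18.5 libraries. At E18.5 their median width over regions was 599 bp, against 685 bp in the 45125 other distal regions called in 9 or more E18.5 libraries, while their median row position was nearer the top, at 23.6% against 28.2%. Regions with more calls had wider peaks, with medians of 483, 514, 583 and 710 bp for 9, 10, 11 and 12 E18.5 calls.

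**Figure D3:**
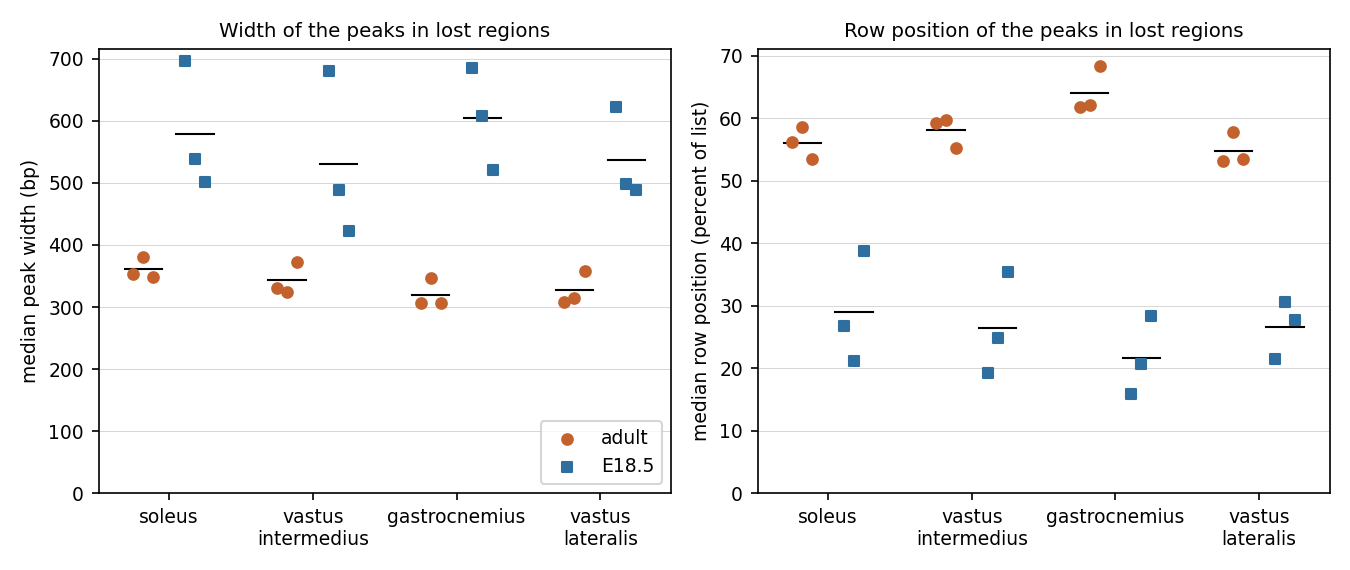
Median width in bp (left) and median row position in percent of the list (right, low values are near the top of the file) of the peaks that lie in lost distal regions, per library and muscle; circles are adult animals, squares litters and black lines means. Adult medians lie at 306 to 381 bp and 53.1% to 68.4%, E18.5 medians at 423 to 696 bp and 15.9% to 38.8%.

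The widths allowed a comparison of muscles at E18.5 that the rule had not used. On log2 widths of the 34274 regions called in all 12 E18.5 libraries, 1615 of them lost regions, limma found 0 lost regions past an adjusted p of 0.05 between slow-biased and fast-biased muscles, and 0 between calf (soleus, gastrocnemius) and thigh muscles. Over all regions tested the count was also 0 (0%) in each contrast. At an unadjusted limma p under 0.05 there were 115 of 1615 lost regions and 1451 of all 34274 regions for slow-biased against fast-biased. For calf against thigh these were 140 and 1991 of the same totals. The median difference over lost regions was -0.03 on the log2 scale for slow-biased minus fast-biased and 0.04 for calf minus thigh, against -0.00086 and -0.01 over all regions tested. The middle 90% of the differences in lost regions ran from -0.48 to 0.38 for slow-biased minus fast-biased and from -0.40 to 0.55 for calf minus thigh, and a p that misses the threshold does not show that widths were alike. The region of the Enthd1 window printed above had widths of 682, 936 and 1225 bp in soleus, 1530, 1073 and 682 bp in vastus intermedius, 564, 245 and 281 bp in gastrocnemius and 220, 457 and 796 bp in vastus lateralis. The slow-biased and fast-biased values overlapped, and the difference of 1.35 ± 0.33 (SE) on the log2 scale did not pass (limma adjusted p = 1.00). For calls, Fisher's exact test (two-sided) on 6 slow-biased against 6 fast-biased libraries cannot go below p = 0.182 with 9 or more of 12 calls, so calls were not tested between muscles.

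Lost and gained regions differed in how many lay inside genes. Of the lost regions 53.0% (95% Wilson interval 51.6% to 54.5%) overlapped a protein-coding or lncRNA gene, against 69.1% (66.7% to 71.4%) of gained regions and 57.0% of all distal regions. The intervals cover counting error only, and neighbouring regions are not independent. When a call had to cover 50% of a region, the share of lost regions inside genes was 56.7%. Lost regions between genes lay at a median distance of 18.7 kb from a gene end, gained ones at 14.5 kb and all distal ones at 20.1 kb. More than 100 kb separated 230 lost regions from any protein-coding or lncRNA gene. These were 11.4% of the lost regions between genes, against 4.55% of gained and 15.5% of all distal ones. Lost regions had a median width of 1172 bp, gained ones 1327 bp and all distal ones 716 bp, and a region merged from many lists tends to be wider. On the autosomes and X, 0.793% (chromosome 5) to 1.36% (X) of the distal regions were lost ones, and on Y 0.0816%.

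Most lost regions stood alone: 2720 (63.6%) had no other within 50 kb. The others formed runs, of which 167 had 3 or more lost regions and held 627 (14.7%). Gained regions had 58 such runs with 15.8% of their number. The number of lost runs was 97 without litter 1 and 473 without litter 3. There were 27 runs with 5 or more and 6 with 7 or more. A run of 8 (chr6:36777471-36897232) spanned the ends of Dgki, a diacylglycerol kinase, and of Ptn, which encodes the growth factor pleiotrophin, with 8 of 23 distal regions. Another run of 8 (chr7:6769535-6941731) lay within Usp29, a paternally expressed imprinted gene of the Peg3 domain, with 8 of 51.

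Of the runs of 7, all lay more than 50 kb from a protein-coding gene. On chromosome 10 (chr10:120616077-120723556) a run took 7 of 24 distal regions upstream of Hmga2, an architectural chromatin protein that is abundant in foetal and scarce in adult tissue. All 7 were called in 11 or 12 E18.5 libraries and in 0 to 3 adult libraries. Their centres lay 140 to 246 kb before the Hmga2 start, and the last lay 57.5 kb from Msrb3. On chromosome 3 (chr3:50932463-51113435) 7 of 40 distal regions formed a run 111 kb or more from Noct, with 2 of them inside the lncRNA gene Gm29230. On chromosome 18 a run of 7 of only 9 distal regions lay 81.9 kb or more from Slc27a6. Runs of 6 overlapped Lamb1, a laminin chain, Mki67, the proliferation antigen Ki-67, and Ror2, a Wnt receptor. Only 2 of the 6 at Mki67 lay in the gene or within 10 kb of it, and the run at Ror2 also overlapped Sptlc1. Further runs of 6 lay 103 kb from Tcf7l2 and 110 kb from Fn1, the fibronectin gene.

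**Figure D4:**
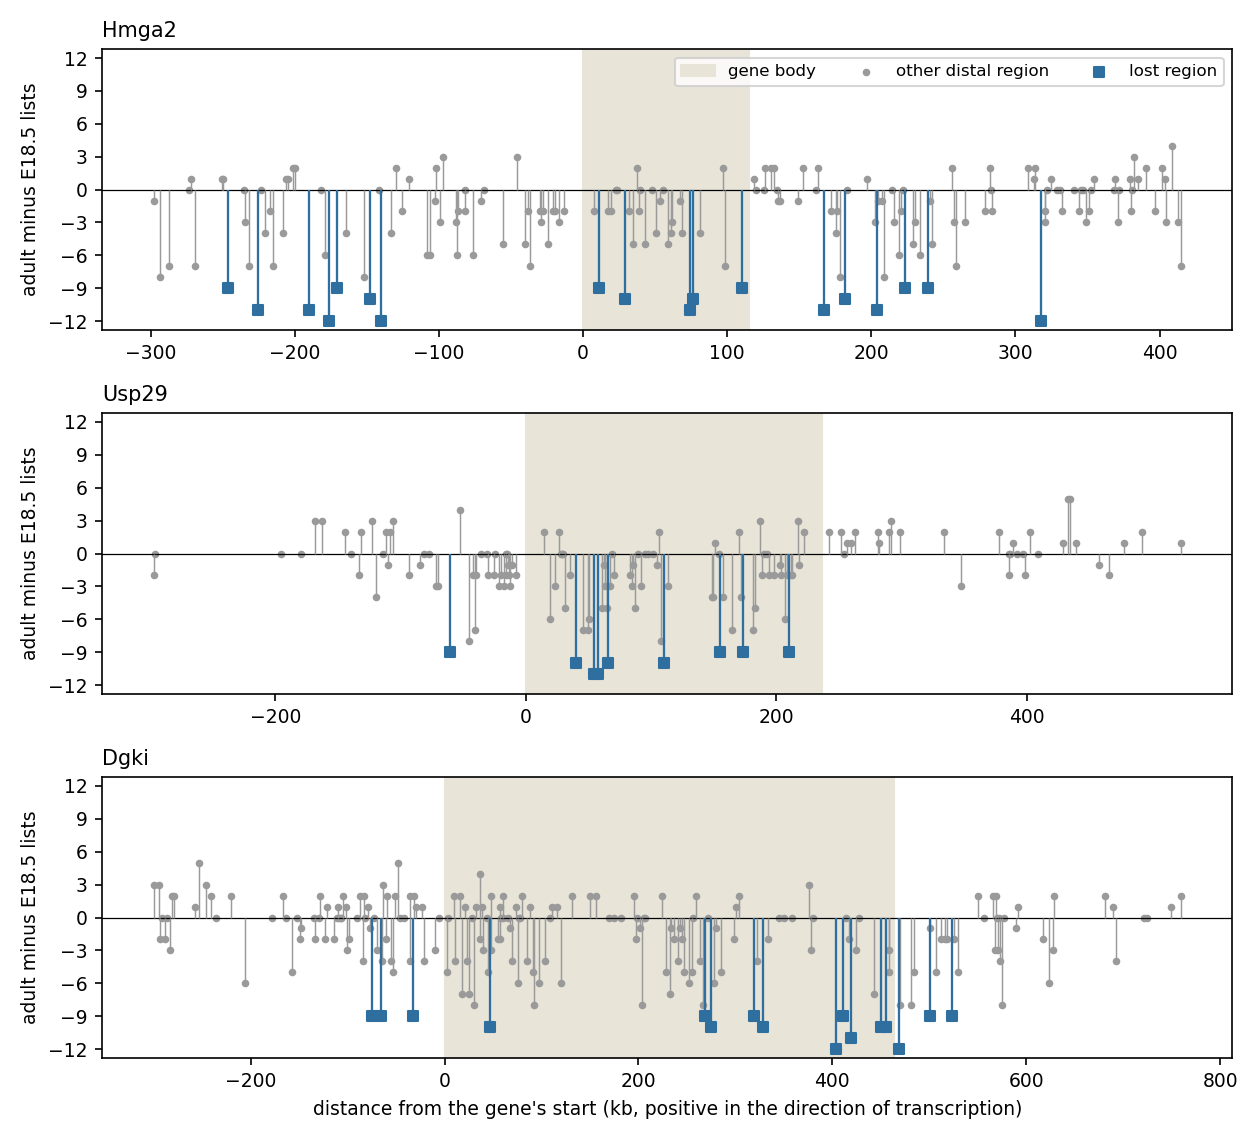
Adult minus E18.5 libraries calling each distal region (vertical, number of libraries) by its distance from the gene's start (horizontal, kb, positive in the direction of transcription) around Hmga2, Usp29 and Dgki, to 300 kb beyond each gene; squares are lost regions, dots other distal regions and shading the gene body. Around Hmga2 18 of 173 distal regions were lost ones, 7 upstream, 5 in the gene and 6 downstream. In the 3 panels 0 regions were gained, beside 0.366% of all distal regions.

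Within the Hmga2 gene 5 lost regions were called in 3, 1, 1, 0 and 1 adult libraries and in 12, 11, 12, 10 and 10 E18.5 libraries. Together with the run upstream and 6 regions downstream, 18 of 173 distal regions (10.4%) within 300 kb of the gene were lost, 7 of them called in 0 adult libraries. The Hmga2 promoter window itself was called in 11 adult and 12 E18.5 libraries. Around Dgki 16 of 210 (7.62%) were lost and around Usp29 9 of 142 (6.34%).

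The widest lost regions of those with 12 E18.5 and 0 adult calls lay on several chromosomes. The widest (chr1:163735397-163737871) had E18.5 peaks of 1397 to 2439 bp, median 2187 bp, and lay 10.2 kb from Mettl11b. The next (chr9:49570751-49572606) lay inside Ncam1, the neural cell adhesion molecule of immature and denervated fibres, with peaks of 1005 to 1545 bp, median 1409 bp. Others lay inside Tox3 (median 1348 bp), Izumo1r (1312 bp), Ntm (1260 bp), Cpa4 (1240 bp) and the predicted gene Gm50595 (1197 bp). A further 3 had no protein-coding gene nearby. They lay 306 kb from Ostf1 (median 1188 bp), 289 kb from Dleu7 (1159 bp) and 290 kb from Noct (1140 bp).

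A gene's locus was taken as its body with 10 kb on each side. Lost regions lay in the loci of 1965 of 21887 protein-coding genes, 2 or more in 424 and 5 or more in 30, and 1900 lost regions lay in no such locus. Long genes hold more regions, so the count in a locus is given beside its number of distal regions. Dgki and Adam12 had most, 11 of 108 and 11 of 110. Adam12 encodes a metalloprotease of myoblasts and mesenchymal cells. An adult library called 0 to 3 of its 11 regions (median 0.5) and an E18.5 library 8 to 11 (median 10.5). Rbms3, an RNA-binding protein, had 9 of 251 (16 without litter 3) and Celf2, a splicing regulator, 8 of 146. Usp29 had 8 of 67, and Vps13b, a lipid transport protein, 7 of 75.

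Dnm3, a dynamin, had 7 of 112, 3 of them called in 0 adult libraries. Mir199a-2 and Mir214 lie within it. Nfia, a nuclear factor I family transcription factor, had 6 of 147, Phactr2 6 of 79 and Thsd4, a protein of fibrillin microfibrils, 6 of 184. Enox1 had 7 of 156 (4 without adult animal 3). Loxl2, an enzyme that crosslinks collagen, had 5 of only 23, and this count was 2 without adult animal 1 or litter 1 and 8 without litter 3. The predicted genes Gm21451 and Gm16867 overlap each other and shared their 6 lost regions. Hmga2 had 5 of 31. Gained regions were absent from 14 of these 15 loci, and Enox1 had 1. These loci were picked for their lost regions, and only 0.366% of all distal regions were gained, so few were to be found in any locus.

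Promoters of genes with lost regions mostly stayed called in both stages. The promoter measure, added after the data were seen, left out windows that overlap a lost region. Among 1531 protein-coding genes with a lost region in the locus and a window, 1120 (73.2%) had a window called in 9 or more libraries of each stage, against 60.0% of all 17479 genes with a window. In 15 (0.980%) the window was called in 9 or more fewer adult than E18.5 libraries, against 0.624% of all genes, and in 0 the reverse held, against 0.103%. The window was called in all 24 libraries in 60.4% of the 1531 genes, against 50.4% of all, and in 0 to 3 libraries of each stage in 10.97%, against 26.8%. A closer comparison set was the 14322 genes with a window and with distal but 0 lost regions in the locus. This set was not matched to the 1531 genes for length or number of distal regions. Of their windows 63.7% were called in 9 or more libraries of each stage, 53.7% in all 24 and 22.7% in 0 to 3 of each stage. In 0.580% the window was called in 9 or more fewer adult libraries, and in 0.119% the reverse held. Of 110 genes with 3 or more lost regions, 87 (79.1%) had a window called in most libraries of both stages and 2 had one called in 9 or more fewer adult libraries. Genes with 2 or more lost regions and a lost promoter window were Agbl4 (2 adult and 11 E18.5 libraries), Zfp618 (0 and 9), Rimklb (1 and 12) and Csrnp3 (1 and 10). All the lost regions and windows are calls in the same 24 libraries, and these shares are a description.

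The genes of muscle growth and differentiation were followed through 10 lists of gene programs. The share of a list's distal regions that were lost ones is set against 1.05% of all distal regions, and the share gained against 0.366%. The rule used the same calls, so no list was tested. Without litter 3 the share over all distal regions was 2.07%.

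Regulators of foetal growth had 9 lost regions of 375 (2.4%). Only 4 of the 16 genes held any, and Hmga2 alone held 5 of the 9. Beside Hmga2 they were in Plagl1 (2 of 20), an imprinted zinc finger factor, Lin28b (1 of 11) and Igf2bp2 (1 of 50), an RNA-binding protein. Genes of embryonic and neonatal muscle had 6 of 192 (3.13%), and gained regions made up 0.521%. They lay in Ncam1 (2 of 55), Myh8 (1 of 10), the neonatal myosin heavy chain, Myh3 (1 of 17), the embryonic one, Chrna1 (1 of 11), a subunit of the acetylcholine receptor, and Tnnt2 (1 of 15), the cardiac troponin T that foetal skeletal muscle also makes. The promoter window of Tnnt2 was called in 1 adult and 12 E18.5 libraries, that of Chrna1 in 8 and 12, and that of Myh8 in 4 and 9. That of Myh3 was called in 0 of both stages.

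Genes of myogenic progenitors had 20 of 692 (2.89%), and 0.867% gained. Without litter 3 they had 35 of 660. Beside Nfia they included Megf10 (5 of 48), a receptor of satellite cells, and Met (3 of 31), the receptor of hepatocyte growth factor on migrating muscle precursors. Eya4 had 3 of 44, and Pax7, the factor that marks satellite cells, 1 of 56. Cell cycle genes had 7 of 188 (3.72%), with 0 gained regions. They lay in Myc (2 of 6), Mki67 (2 of 15), Cdk6 (2 of 55) and Ccnd2 (1 of 14). The promoter windows of Mki67 and Cdk6 were called in all 12 libraries of each stage.

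Extracellular matrix genes had 20 of 710 (2.82%; 34 of 667 without litter 3), and 0.282% gained. Ltbp1, which holds latent TGF-beta in the matrix, had 5 of 91, and Col14a1 and Fbn1, a fibril-associated collagen and fibrillin-1, had 3 of 46 and 3 of 85. Col12a1 had 2 of 33 and Col3a1 2 of 17. The Col3a1 promoter window was called in 5 adult and 12 E18.5 libraries. Genes of axon guidance and cell adhesion had 19 of 1188 (1.60%) with 0 gained, among them Robo1 (4 of 105), Sema3a (2 of 25) and Epha3 (2 of 29).

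Closer to the background were limb patterning genes with 9 of 595 (1.51%; 18 of 538 without litter 3) and genes of Wnt, BMP, TGF-beta and FGF signalling with 11 of 793 (1.39%; 18 of 740 without litter 3), each with 1.01% gained. They included Meis1 (2 of 38), Gli3 (2 of 58), Tcf7l2 (3 of 86), Id3 (1 of 4) and Bmp5 (1 of 8). Hox genes had 0 of only 26, and 1 without adult animal 2 or litter 1. Genes of the mature fibre went the other way, with 2 lost of 692 (0.289%) and 17 gained (2.46%). They had 4 lost of 640 without litter 2 and 5 of 649 without litter 3. The 2 lay in Tnnt3, the fast troponin T (1 of 7), and in Actn2, which anchors actin at the Z-disc (1 of 30).

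**Figure D5:**
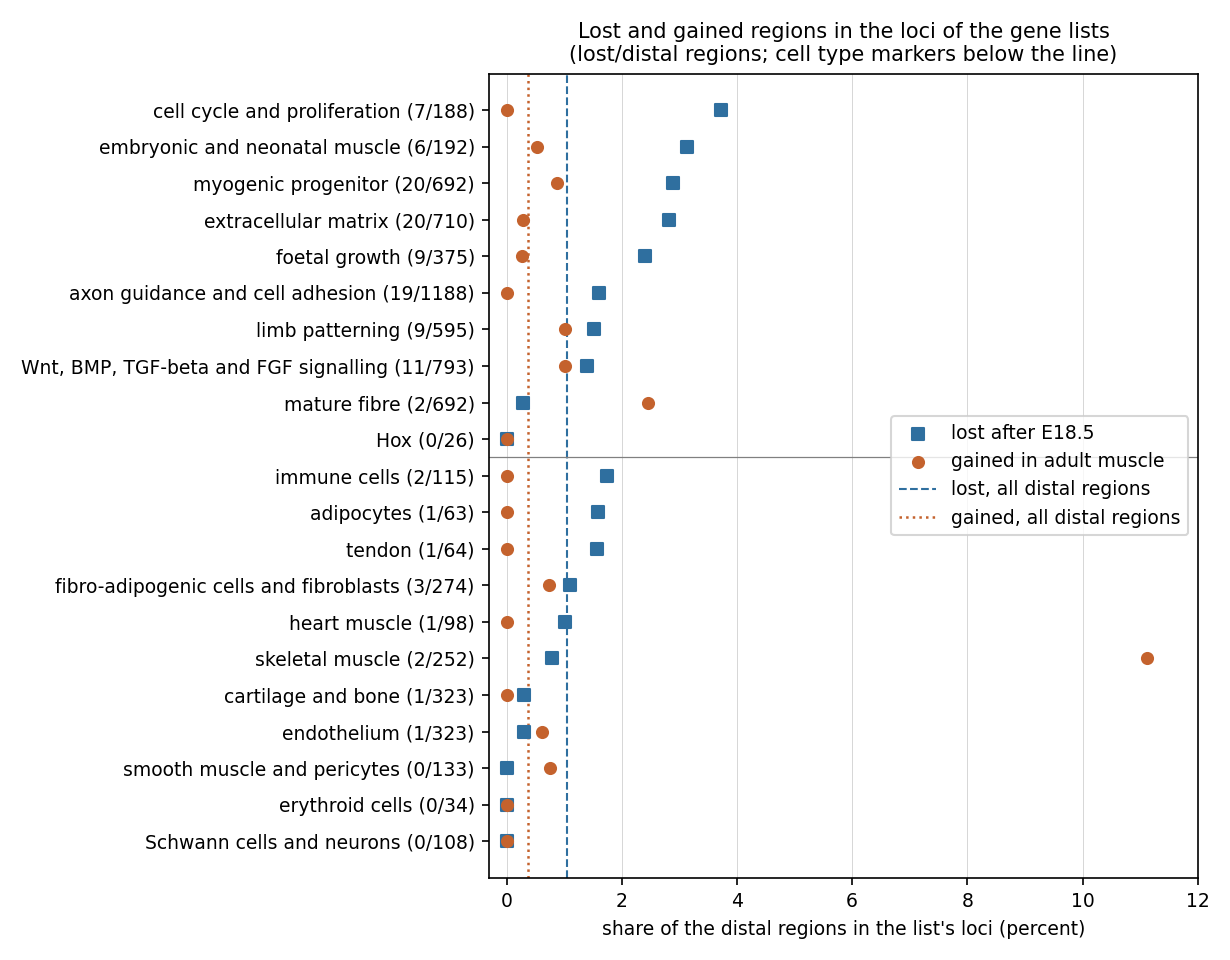
Share of the distal regions in each list's gene loci that were lost after E18.5 (squares) or gained in adult muscle (circles), in percent, with the shares over all distal regions as vertical lines; gene programs stand above the horizontal line and cell type markers below it. Cell cycle genes lie at 3.72% lost and mature fibre genes at 0.289%, against 1.05% of all distal regions.

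Marker lists of cell types are short, and their shares rest on 0 to 3 lost regions each, against 1.05% of all distal regions. Skeletal muscle markers had 2 of 252 (0.794%) and 28 gained, 26 of these in Ttn. Immune cell markers had 2 of 115 (1.74%), adipocyte markers 1 of 63 (1.59%), tendon markers 1 of 64 (1.56%), fibroblast markers 3 of 274 (1.09%) and heart muscle markers 1 of 98 (1.02%). The fibroblast share leans on the gene Tcf4, which gave 136 of the 274 distal regions and 1 of the 3 lost ones. Tcf4 is not Tcf7l2, which was counted in the signalling list with 3 of 86. Cartilage and bone markers and endothelial markers each had 1 of 323 (0.310%). Without litter 3 endothelial markers had 5 of 297, heart ones 4 of 92, cartilage ones 3 of 301 and fibroblast ones 6 of 259. Smooth muscle, Schwann cell and neuron, and erythroid markers had 0 of 133, 0 of 108 and 0 of 34. The 2 immune regions lay in Mrc1, a receptor of tissue macrophages, and the tendon one at Scx.

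Promoter windows of some marker lists were called more often at E18.5. Of 7 cartilage and bone windows, 1 was called in 9 or more adult libraries and 4 in 9 or more E18.5 libraries. The counts were 2 and 4 of 5 for smooth muscle, 1 and 3 of 3 for Schwann cells and neurons, and 0 and 2 of 4 for tendon. Only part of each list had a window: 3 of 10 Schwann cell and neuron genes, 5 of 14 fibroblast, 5 of 8 smooth muscle and 4 of 7 tendon genes. Of all 17479 genes with a window, 60.0% had one called in 9 or more libraries of both stages. Shares of all windows per stage are not given here. Fibroblast windows gave 4 and 4 of 5, endothelial ones 5 and 5 of 6, erythroid ones 1 and 1 of 7, heart ones 0 and 1 of 6, adipocyte ones 1 and 2 of 6 and immune ones 0 and 0 of 5. Windows of Ptprc, Itgam, Lyz2, Gata1, Alas2, Epb42, Hbb-bs, Tnmd, Kera, Ibsp, Sox5, Plin1 and Pdgfra were called in 0 libraries. The part of such cells in the lost regions, including those at matrix genes, was not tested.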

How the data were processed

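The authors deposited 1 ATAC-seq peak list per library on mm10, with peak start and end positions as the only values and no score, count or signal. Alignment and peak tools named in the submitters' processing notes were Bowtie2 2.4.4 and MACS2 2.1.1, next to bedtools 2.25.0, Picard, SAMtools 1.14.0, Trimmomatic 0.39.0 and FastQC 0.11.5. For peak thresholds, read shifting and depth the sources used here give nothing. Lists were called per library, and 0 pairs of lists were identical.

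Peaks on chromosomes 1 to 19, X and Y were merged where they overlapped by 1 bp or more, with Python 3.11.15, and a region was called in a library when 1 of its peaks lay in it. Gene ends came from 34614 protein-coding and lncRNA genes of the RefSeq table of GRCm38.p6, which gives no strand or exons. Members and gene lists were chosen with earlier results of these data known. Named loci were the 15 protein-coding genes with most members (ties by the larger share of the locus's distal regions, then by symbol), up to 3 genes per list, the 10 widest regions with 12 E18.5 and 0 adult calls and the longest runs. Further list genes and runs are named after their values were seen, and 1 of the longest runs is not reported here.

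E18.5 log2 peak widths were fitted with limma 3.58.1 (R 4.3.3) over all regions called in 12 libraries, with Benjamini-Hochberg adjustment over all of them and 0.05 as threshold, and the fit was tested on simulated data. The labels tie the 4 muscles of a replicate to 1 litter, and deviations from the group means of muscles of the same litter correlated at 0.12 on average (18 pairs, -0.01 to 0.26). GC content and motifs of the regions themselves were planned but not analysed here, since no genome was used.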

Additional observations from a re-analysis of the deposited data

How the results depend on the processing

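The number of lost regions depended on where the difference was set. It was 7316 with 8 or more libraries and 2274 with 10 or more, with 467 and 54 runs of 3 or more. When a call had to cover 50% of the region, 2155 regions met the rule, 834 of them among the 4279, with 56.7% inside genes and 44 runs. With 115333 peaks drawn at random from each list there were 993 regions, 841 of them among the 4279, and 5 runs. With the first 115333 rows of each list, an alternative chosen after seeing the data, there were 4873, of which 3343 were among the 4279. All genes of the table, a gene distance of 2.5 kb and merging over 100 bp left the numbers of regions and runs within 1.5 times. At 2.5 kb the Hmga2 locus had 3 lost regions, mature fibre genes 1 and skeletal muscle and heart markers 0, and with merging mature fibre genes had 4 and skeletal muscle markers 1. Leaving out each animal or litter in turn gave 3073 to 7755 regions, 97 to 473 runs and 53.1% to 54.2% inside genes. Lost regions outnumbered gained ones under all 14 alternatives, by 1.71 times without litter 1 to 5.80 times without litter 3.

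The share of lost regions in each list's loci was set against that of all distal regions under all 14 alternatives. The embryonic muscle, myogenic progenitor, cell cycle, matrix and foetal growth lists stayed above it, at 1.71 to 6.09 times it. Limb patterning (1.27 to 4.02 times) and axon guidance and cell adhesion (1.23 to 1.97 times) did so too. The mature fibre list stayed below it, at 0 to 0.786 times. So did markers of skeletal muscle (0 to 0.993), cartilage and bone (0 to 0.482), endothelium (0 to 0.814) and Schwann cells and neurons (0 to 0.802). Smooth muscle and erythroid markers were at 0 throughout. The signalling (0 to 1.92) and Hox (0 to 5.07) lists lay on both sides of the share of all distal regions. Markers of tendon (0 to 6.93), fibroblasts (0 to 1.31), immune cells (0.948 to 3.62), adipocytes (0 to 2.86) and heart muscle did too. Some ratios rest on few regions. Cell cycle genes reached 6.09 times with 3 of 157 regions, in the random draw. Embryonic muscle genes then had 2 of 150 and foetal growth genes 4 of 311. These recounts used the rule's own calls and were added after seeing the data. Of the counts in the 15 named loci, 42 of 210 moved by over 1.5 times, 15 of them with the random draw. With the litter as replicate block, 0 lost regions passed in either width contrast. At an unadjusted limma p under 0.05 there were 128 and 163 of 1615 lost regions, and 1722 and 2371 of all 34274. Quantile normalisation, regions called in 9 or more E18.5 libraries and leaving out each litter also gave 0 lost regions past the adjusted threshold. Among all 69403 regions called in 9 or more, 1 passed it. List length, not read depth, was the only measure of sampling, and chromatin without a call may still be open.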

Other observations

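Lost regions lay in several domains of imprinted genes, which are expressed from 1 parental copy and include many regulators of foetal growth. Besides the 8 in the Usp29 locus, Plagl1 had 2 of its 20 distal regions, of which an adult library called 0 or 1 and an E18.5 library 1 or 2, and the cluster that begins with Mir379 had the single region that was nearest to 13 hairpins. Other imprinted genes of the foetal growth list, Igf2, H19, Dlk1, Peg3 and Mest, held no lost region in their loci. The loci with lost regions were chosen after their values were seen, and imprinted genes were not tested as a list.

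Few listed genes held both lost and gained regions, which made up 1.05% and 0.366% of all distal regions. Prrx1, a limb mesenchyme factor, had 1 lost and 3 gained of 24 distal regions, Eya4 had 3 and 1 of 44, Tgfb2 1 and 1 of 43, Bmpr1b 1 and 1 of 43 and Actn2 1 and 1 of 30. Titin stood apart among them with 1 lost and 26 gained of 121, while its promoter window was called in 12 adult and 7 E18.5 libraries.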
